A study of Mus musculus with 15 samples.

Results

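Side population (SP) and non-side population (non-SP) cells of untransformed neurospheres, which are free-floating cultures of neural stem and progenitor cells, were separated by FACS, and 3 arrays of each were compared. These 6 arrays, chosen by their titles, are part of 15 mouse expression arrays, of which the other 9 hold SP and non-SP cells of brain tumour line 3447 and SP cells of line 4346, with 3 arrays in each of 5 groups. Before sorting, the tumour lines had been passed through the brain of immunodeficient hosts carrying the Prkdc<scid> and Il2rg<tm1Wjl> alleles and cultured again. The neurospheres came from mice that carried the S100beta-verbB transgene and were p53-/- or p53+/-, and the labels do not say which p53 genotype a given replicate had. The v-erbB transgene, an activated form of the EGF receptor, is driven by the S100beta promoter, so SP and non-SP neurospheres and both tumour lines share it, together with loss of at least 1 p53 allele, and no group was wild type. The 3 replicates stand for 3 mice. The design text first describes neurospheres isolated from separate transgenic animals and later speaks of hosts that had received neurosphere cells, so it is not certain which of these the arrays hold.

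A side population is defined by a low content of a DNA-binding dye that ABC transporters, above all Abcg2, pump out of the cell. The gate has been used to look for stem-like cells in many tissues. Neurospheres are mixed cultures in which stem cells, committed progenitors of the oligodendrocyte and neuron lineages and astrocyte-like cells can lie side by side. In a sorted bulk sample, fewer cells of a type and less RNA per cell cannot be told apart.

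Values are given in 2 ways. A signal is the deposited MAS5 intensity of a gene's probe set, on a linear scale on which the trimmed mean of each array is 500 and the array medians of the 6 neurosphere arrays ran from 45.5 to 68.1. A difference is SP minus non-SP in log2 of the quantile-normalized signal plus 16, so that 1 stands for a doubling and changes of dim genes are understated. Each difference comes with the standard error of a limma fit in which neurosphere arrays of the same replicate number formed a pair. The fit included the tumour arrays, so this standard error also rests on their spread. A difference passed when its Benjamini-Hochberg adjusted p over 11908 genes was under 0.05. Overlap between groups was judged on the normalized scale. Levels of different genes rest on different probe sets and are not set against each other.

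The replicate numbers paired the samples. Deviations from the group means correlated at 0.58, 0.52 and 0.62 between SP and non-SP arrays of the same number and at -0.41 to -0.10 between arrays of different numbers. The cultures expressed genes of neural stem cells, with 18 of 22 neural stem and radial glia genes above the array median on all 6 arrays. Of 15 microglia and macrophage genes 0 were above the median on all 6 arrays. The 3' to 5' ratio of actin, a measure of RNA integrity, was 2.49 to 3.29 on 14 arrays and 5.30 on 1 tumour array, replicate 3 of the 4346 SP. That array belongs to no neurosphere group, but it enters the estimate of the spread.

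SP and non-SP neurospheres differed in few genes when the spread was estimated over all groups, tumour arrays included. Of 11908 genes 7 passed (0.0588%), with 4 higher in SP cells (0.0336%) and 3 lower (0.0252%). The stress-response transcription factor Atf3, the secreted matrix protein Ccn1, the membrane protein Emp1 and the linker histone H1f2 rose. The glutamate transporter Slc1a1, the tetraspan membrane protein Lhfpl3 and the neuronal protein Atcay fell. At an unadjusted p under 0.05 there were 712 genes (5.98%), of which 468 were higher and 244 lower. The SP arrays did not overlap the non-SP arrays in 7.60% of genes, with SP above in 4.37% and below in 3.23%, and 35.4% of genes had differences of the same sign in all 3 pairs. The median difference over all genes was 0.04, 57.0% of genes lay above 0, 172 genes differed by more than 1 log2 unit upwards and 67 downwards. The number of genes past the test rose to 28 (17 higher, 11 lower) without replicate 3 of the 4346 SP (0.235% of genes, with 0.143% higher and 0.0924% lower), and to 70 (47 higher, 23 lower) when the 6 neurosphere arrays were fitted alone. For neurosphere SP against non-SP with the 6 arrays also normalized alone, it was 99, of which 70 were higher and 29 lower. All 7 genes were among the 28 and among the 70, and 22 genes were shared by these sets, which is 78.6% of the 28 and 31.4% of the 70. Of the genes described below, those that passed in addition without replicate 3 of the 4346 SP were Cntn1 (adjusted p = 0.00394), Clu (0.0190), Neto1 (0.0235), Nfatc2 (0.0453) and Cbln1, Dusp10, Gria2, Hsd11b1, Nr4a3 and Pdgfra (0.0455 each). With the 6 arrays alone these were Hspa1b, Neto1, Clu, Cntn1, Csrnp1, Gap43, Gria2, Mt2, Cbln1, Cxcl1, Ptgs2, Stat3, Dcx, Trib3, Klf6, Pdk4, Fosl2, Dusp10, Bag3, Nid1, Lrrtm1, Elavl4, Nr4a3 and Hsd11b1, at adjusted p from 0.00343 (Hspa1b) to 0.0485 (Hsd11b1). The count was 0 without replicate 1 or without replicate 2 of the neurospheres, 2 without replicate 3, and 0 without replicate 2 or replicate 3 of the 3447 non-SP.

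**Figure D1:**
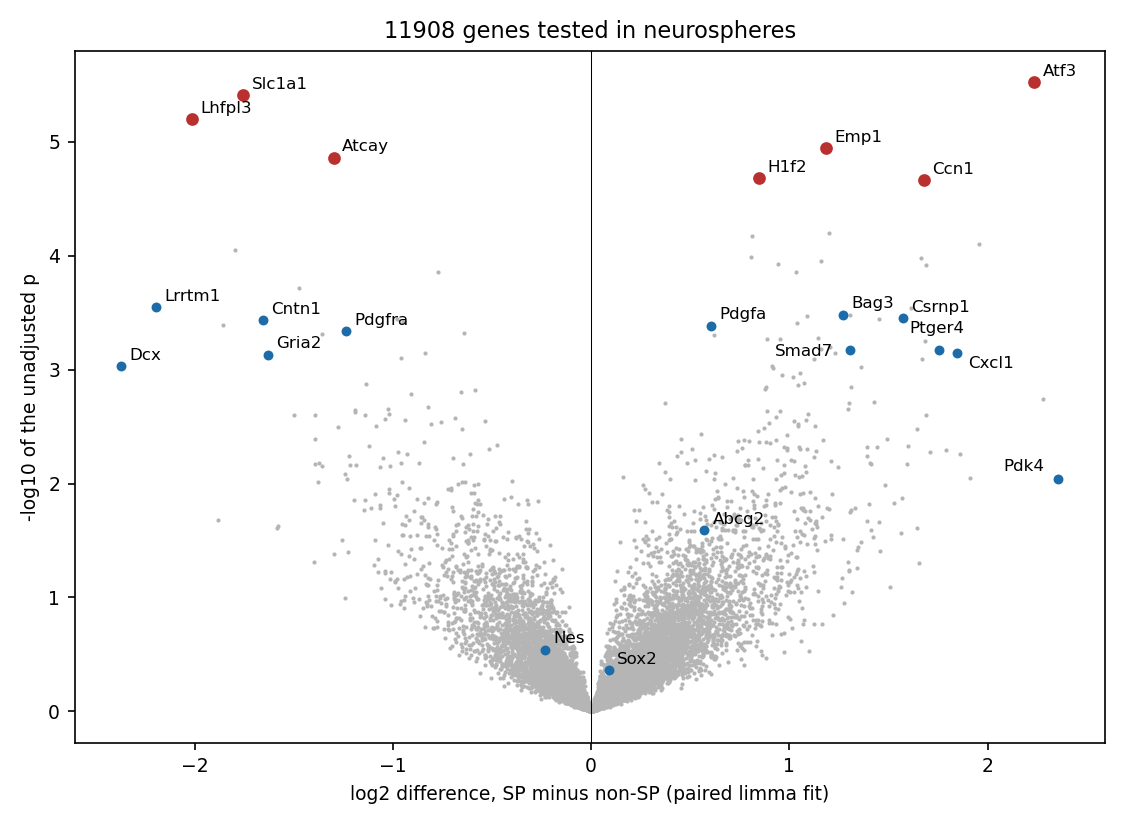
Each point is 1 of 11908 genes, with the log2 difference of SP minus non-SP on the horizontal axis and -log10 of the unadjusted p of the paired limma fit on the vertical axis. The 7 genes past an adjusted p of 0.05 are large red points, and blue points are genes named in the text that did not pass, among them Dcx at -2.37 and Abcg2 at 0.57.

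Among the genes that rose, Atf3 encodes a transcription factor of the ATF/CREB family that cells induce within a short time of many kinds of stress. Its signal was 993, 1253 and 1215 in SP replicates 1 to 3 and 223, 241 and 255 in the non-SP arrays of the same numbers. All SP arrays lay above all non-SP arrays. The difference over 3 pairs was 2.24 ± 0.31 (SE of the fit to all arrays, adjusted p = 0.0230, limma).

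Ccn1, also known as Cyr61, is a secreted protein that binds integrins and is a common readout of YAP and of serum response factor. Its signal was 5032, 3985 and 3537 in SP cells and 1398, 1338 and 1114 in non-SP cells, with no overlap. The difference was 1.68 ± 0.28 (adjusted p = 0.0371), and the pair differences lay between 1.52 and 1.84.

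Emp1 is a small tetraspan protein of the PMP22 family found in the plasma membrane of proliferating and migrating cells. Its signal was 3378, 1815 and 3044 in SP cells and 1415, 857 and 1315 in non-SP cells. The groups did not overlap, and the difference was 1.19 ± 0.18 (adjusted p = 0.0327).

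H1f2 is a linker histone that binds DNA between nucleosomes. Its signal was 6210, 4865 and 7720 in SP cells and 3047, 2773 and 4354 in non-SP cells. Here too the lowest SP array lay above the highest non-SP array, and the difference was 0.85 ± 0.14 (adjusted p = 0.0371). These 4 genes were higher in SP cells in 3 of 3 pairs.

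Among the genes that fell, Slc1a1 encodes a sodium-dependent transporter of glutamate and cysteine, EAAT3, that is best known from neurons. Its signal was 207, 411 and 487 in SP cells and 1481, 1083 and 1231 in non-SP cells, without overlap. The difference was -1.75 ± 0.25 (adjusted p = 0.0230), with replicate 1 at -2.64 and the other pairs at -1.36 and -1.26. Of 5 tested members of the Slc1 family, Slc1a1 was the one that passed, and the median of the 5 was -0.16.

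Lhfpl3 is a tetraspan protein whose transcript marks oligodendrocyte progenitors in brain. Its signal was 325, 640 and 108 in SP cells and 1526, 1940 and 627 in non-SP cells. The arrays overlapped because replicate 3 was low in both populations, and SP was lower in 3 of 3 pairs. The difference was -2.01 ± 0.30 (adjusted p = 0.0250).

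Atcay, or caytaxin, is a neuronal protein named for an inherited ataxia. Its signal was 222, 285 and 39.4 in SP cells and 600, 765 and 96.0 in non-SP cells, again with overlap and with replicate 3 low in both populations. The pair differences, -1.29, -1.34 and -1.26, hardly varied, and the fitted difference was -1.30 ± 0.20 (adjusted p = 0.0327). Lhfpl3 and Atcay were also the 2 genes of the 7 that differed among replicates past the test described further on.

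**Figure D2:**
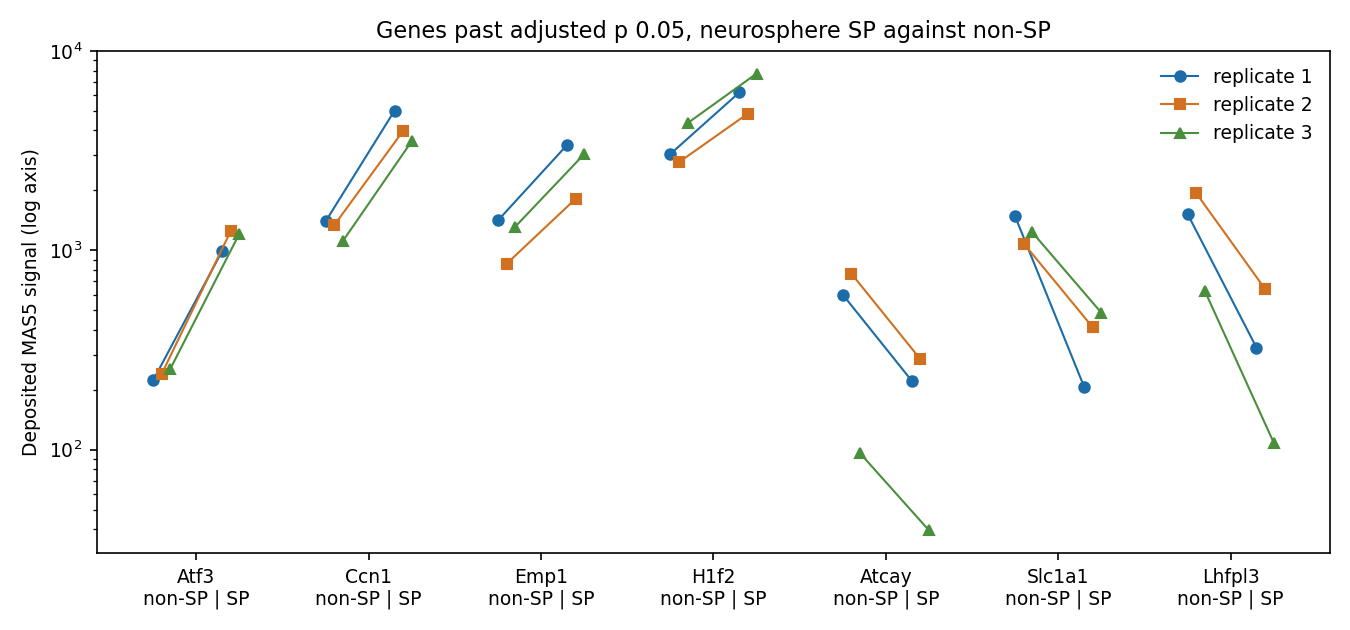
Deposited MAS5 signal on a log axis of the 7 genes that passed, with a line from the non-SP array to the SP array of each of 3 replicates. Atf3, Ccn1, Emp1, H1f2 and Slc1a1 have groups that do not overlap, whereas for Atcay and Lhfpl3 replicate 3 lies lower than the others in both populations and all 3 lines fall.

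Several of these genes have more than 1 probe set on the array, and the brightest was used. The other 3 probe sets of Ccn1 gave differences of 1.49 to 1.71, the other 2 of H1f2 gave 0.70 to 1.17 and the other 1 of Lhfpl3 gave -1.88. The second probe set of Emp1 gave -0.12 at a mean signal of 12.6. The other 2 probe sets of Slc1a1 gave -0.87 at a mean signal of 135 and 0.86 at 22.0, and those of Atcay gave -0.67 and 0.00 at mean signals of 32.5 and 27.8. Atf3 had no other probe set.

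The windows around the start sites of 3 genes that rose are shown because Atf3, Ccn1 and Emp1 belong to groups of genes that AP-1, CREB family factors or TEAD factors, the DNA-binding partners of YAP, are known to control. Each is a RefSeq window on GRCm38.p6 from 250 bases before to 50 bases after a start site, read 5′ to 3′ on the gene's strand. The Atf3 window lies at chr1:191183284-191183583 on the minus strand, the Ccn1 window at chr3:145649936-145650235 on the minus strand and the Emp1 window, which is 1 of 2 listed for this gene, at chr6:135362681-135362980 on the plus strand. Capitals mark matches to the motifs searched. The windows of H1f2, Lhfpl3 and Slc1a1 and the other Emp1 window held none of these motifs and are not printed.
Atf3: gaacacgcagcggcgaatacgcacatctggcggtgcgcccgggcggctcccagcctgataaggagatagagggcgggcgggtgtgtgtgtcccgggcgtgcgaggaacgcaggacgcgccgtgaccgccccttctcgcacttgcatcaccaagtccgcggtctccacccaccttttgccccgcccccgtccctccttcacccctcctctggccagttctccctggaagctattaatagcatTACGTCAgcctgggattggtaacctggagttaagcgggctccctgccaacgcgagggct
Ccn1: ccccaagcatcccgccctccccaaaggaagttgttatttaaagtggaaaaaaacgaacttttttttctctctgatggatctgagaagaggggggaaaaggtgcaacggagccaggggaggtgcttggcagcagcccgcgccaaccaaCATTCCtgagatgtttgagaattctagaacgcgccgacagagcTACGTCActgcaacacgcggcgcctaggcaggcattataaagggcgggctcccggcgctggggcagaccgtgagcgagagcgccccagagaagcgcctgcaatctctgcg
Emp1: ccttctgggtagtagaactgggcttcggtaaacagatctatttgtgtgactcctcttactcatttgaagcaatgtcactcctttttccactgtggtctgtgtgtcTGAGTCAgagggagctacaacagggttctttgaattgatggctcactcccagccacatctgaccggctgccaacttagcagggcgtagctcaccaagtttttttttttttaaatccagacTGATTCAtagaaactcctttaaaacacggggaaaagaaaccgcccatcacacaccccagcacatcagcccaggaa

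The motifs searched on both strands were the AP-1 site TGANTCA, the CRE TGACGTCA, the serum response element, the TEAD site GGAATG and the CRE variant TACGTCA, of which the last was added after the sequences had been read. The Atf3 window held TACGTCA, 9 bases before the start. The Ccn1 window held CATTCC, which is GGAATG on the other strand, 103 bases before the start, and TACGTCA 60 bases before it. The Emp1 window held AP-1 sites 145 bases (TGAGTCA) and 25 bases (TGATTCA) before the start. Of 32851 windows of this length in the table, 7.808% held an AP-1 site, 1.79% the CRE, 1.629% the serum response element, 14.663% the TEAD site and 1.272% the CRE variant. Of the 12416 windows of genes tested, the shares were 4.921%, 3.02%, 1.264%, 11.968% and 2.118% in the same order. For the 524 windows of genes higher in SP cells at an unadjusted limma p under 0.05, they were 6.107%, 2.863%, 2.099%, 12.977% and 1.908%. For the 250 windows of genes lower at that threshold, they were 2.4%, 1.6%, 2.0%, 13.2% and 1.6%. These shares describe letters in the windows and were not tested.

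The transporters that define the gate differed little. Of 8 tested ABC transporters known to export dyes or drugs 0 passed, 6 lay above 0 and their median difference was 0.19. Abcg2, the exporter most closely tied to the side population, had signals of 6139, 6512 and 5259 in SP cells and 4348, 3422 and 3773 in non-SP cells. All SP arrays were above all non-SP arrays, and the difference was 0.57 ± 0.23 (adjusted p = 0.712). With the 6 arrays fitted alone the adjusted p of Abcg2 was 0.0558, and with these arrays also normalized alone it was 0.0451 at a difference of 0.59. Abcb1b, a P-glycoprotein gene, had 126, 114 and 160 in SP cells and 97.2, 178 and 110 in non-SP cells, with overlap and a difference of 0.13 ± 0.34 (adjusted p = 0.997). The exporters Abcc1 (0.17 ± 0.21) and Abcc5 (-0.26 ± 0.23) did not pass either, and for Abcc5 all SP arrays lay below all non-SP arrays.

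Stem cell genes lay on either side of 0. Of 21 tested neural stem and radial glia genes 10 were above 0 and 11 below, the median was -0.02 and 0 passed. Sox2, a transcription factor that maintains neural stem cells, had 7262, 6345 and 6460 in SP cells and 6251, 6332 and 5726 in non-SP cells, a difference of 0.09 ± 0.11 (adjusted p = 0.984). Its 95% interval spans -0.15 to 0.33. Nes, the intermediate filament nestin, had 1145, 1461 and 1312 against 1231, 2079 and 1464, a difference of -0.23 ± 0.21 (adjusted p = 0.972). Prom1, the surface protein CD133, ranged from 116 to 1281 in SP cells and from 164 to 1029 in non-SP cells, with replicate 2 highest in both, and its difference was 0.09 ± 0.39 (adjusted p = 0.999). Egfr, whose viral homologue is the transgene, had a difference of -0.40 ± 0.37 (adjusted p = 0.973) and its arrays overlapped. The embryonic pluripotency factor Nanog had 72.2, 121 and 140 in SP cells and 30.7, 12.2 and 22.8 in non-SP cells, a difference of 1.79 ± 0.54 that did not pass (adjusted p = 0.457), and its non-SP signals lay below the array median.

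Immediate early and AP-1 genes, which cells switch on within minutes of growth factor or stress signals, mostly lay higher in SP cells. Of 28 tested genes 27 were above 0, the median was 0.42 against 0.04 over all genes, 1 passed (Atf3) and 12 were higher at an unadjusted p under 0.05, against 3.93% of all genes. The nuclear protein Csrnp1 had 882, 1084 and 566 in SP cells and 254, 332 and 237 in non-SP cells, with no overlap, a difference of 1.57 ± 0.34 and an adjusted p of 0.153. The orphan nuclear receptor Nr4a3 had 742, 900 and 647 against 292, 321 and 394, also without overlap, at 1.20 ± 0.28 (adjusted p = 0.182). The other 2 probe sets of Nr4a3 gave -0.32 and -0.03. The AP-1 subunit Fosl2 had 7221, 4174 and 3272 against 3969, 1014 and 1855, and the groups overlapped through the high non-SP replicate 1, at 1.23 ± 0.29 (adjusted p = 0.182). The zinc finger factor Klf6 stood at 0.51 ± 0.16 and the AP-1 subunit Fosl1 at 1.86 ± 0.57, and neither passed. With the 6 neurosphere arrays fitted alone, 5 of the 28 passed, namely Atf3, Csrnp1, Nr4a3, Fosl2 and Klf6, against 0.395% of all genes. Each of these 5 genes had SP above non-SP in 3 of 3 pairs.

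Heat shock genes split. Of 16 tested chaperone genes 12 were above 0 at a median of 0.04, 0 passed and 4 were higher at an unadjusted p under 0.05, against 3.93% of all genes. The inducible chaperone Hspa1b had 7418, 5809 and 8141 in SP cells and 2671, 1985 and 4128 in non-SP cells, without overlap, at 1.30 ± 0.35 (adjusted p = 0.326). Its co-chaperone Bag3 had 438, 202 and 443 against 171, 90.0 and 181, a difference of 1.27 ± 0.27 (adjusted p = 0.153). The small heat shock protein Hspb8 (1.71 ± 0.52) and Hspa1a (1.64 ± 0.66) did not pass, and Hspa1a and Hspa1b are near-identical copies that the probe sets may not tell apart. Both Hspa1b and Bag3 passed with the 6 arrays alone (adjusted p = 0.00343 and 0.0380), which is 2 of the 16, against 0.395% of all genes called higher.

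Genes of a MAP kinase feedback list lay above 0 in 17 of 17 cases, at a median of 0.28. Of these 0 passed and 5 had an unadjusted p under 0.05, against 3.93% of all genes on the higher side. The list holds genes that restrain the pathway, such as those below, but also the AP-1 subunit Fosl1, its highest member at 1.86. The phosphatase Dusp10 had 2755, 2240 and 2452 in SP cells and 1094, 1507 and 829 in non-SP cells, without overlap, at 1.15 ± 0.26 (adjusted p = 0.163). Dusp1, the immediate early phosphatase, stood at 0.37 ± 0.12 without overlap and Dusp5 at 0.81 ± 0.27 with overlap. Errfi1, a feedback inhibitor of the EGF receptor, had 6251, 5696 and 6089 against 4516, 3393 and 4245, again without overlap, at 0.52 ± 0.22 (adjusted p = 0.763).

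Targets of YAP and serum response factor, which report on cell shape and actin tension, were above 0 in 24 of 24 tested genes. Their median was 0.42, and 2 passed (Ccn1 and Emp1), against 0.0336% of all genes on the higher side. Emp1 was put on this list with its difference known. Ccn2, the sister of Ccn1, had 298, 495 and 144 in SP cells and 43.6, 305 and 48.9 in non-SP cells, with overlap, at 1.46 ± 0.64 (adjusted p = 0.785). Tissue factor, F3, stood at 0.81 ± 0.32 and the actin crosslinker Actn1 at 0.49 ± 0.23.

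TGF-beta signalling genes were above 0 in 13 of 16 cases at a median of 0.31, and 0 passed. Smad7, an inhibitor that the pathway itself induces, had 279, 181 and 217 in SP cells and 104, 96.2 and 59.1 in non-SP cells, without overlap, at 1.31 ± 0.31 (adjusted p = 0.182). The induced matrix protein Tgfbi had 138, 82.1 and 89.4 against 26.3, 33.3 and 1.41, also without overlap, at 1.91 ± 0.64 (adjusted p = 0.551). The receptor Tgfbr2 stood at 0.65 ± 0.25 with overlap. Of 17 BMP and Id genes 9 were above 0 at a median of 0.06, and the ligand Bmp2 stood at 1.22 ± 0.43 (adjusted p = 0.629).

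Inflammatory mediators lay on the SP side. NF-kB targets and cytokines were above 0 in 16 of 16 tested genes at a median of 0.48, of which 0 passed and 4 were higher at an unadjusted p under 0.05 (all genes, 3.93%). The chemokine Cxcl1 had 126, 335 and 189 in SP cells and 33.7, 97.7 and 28.2 in non-SP cells, without overlap, at 1.85 ± 0.44 (adjusted p = 0.182). The chemokine Ccl2 had 491, 860 and 190 against 357, 201 and 49.8 with overlap, at 1.39 ± 0.42 (adjusted p = 0.457). Cxcl10 reached 1349 in SP replicate 3 against at most 132 in the other 5 arrays, so its difference of 1.57 ± 0.56 rests mainly on 1 pair. Of 5 prostaglandin genes 5 were above 0 at a median of 0.84. Ptger4, a receptor of prostaglandin E2, had 488, 1441 and 998 against 227, 157 and 546, with overlap, at 1.75 ± 0.41 (adjusted p = 0.182). The other 1 probe set of Ptger4 gave 0.27. The inducible cyclooxygenase Ptgs2 had 1395, 478 and 350 against 480, 242 and 74.1 with overlap, at 1.51 ± 0.81 (adjusted p = 0.885), and it passed with the 6 arrays alone (adjusted p = 0.0226). The other 1 probe set of Ptgs2 gave -0.22.

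**Figure D3:**
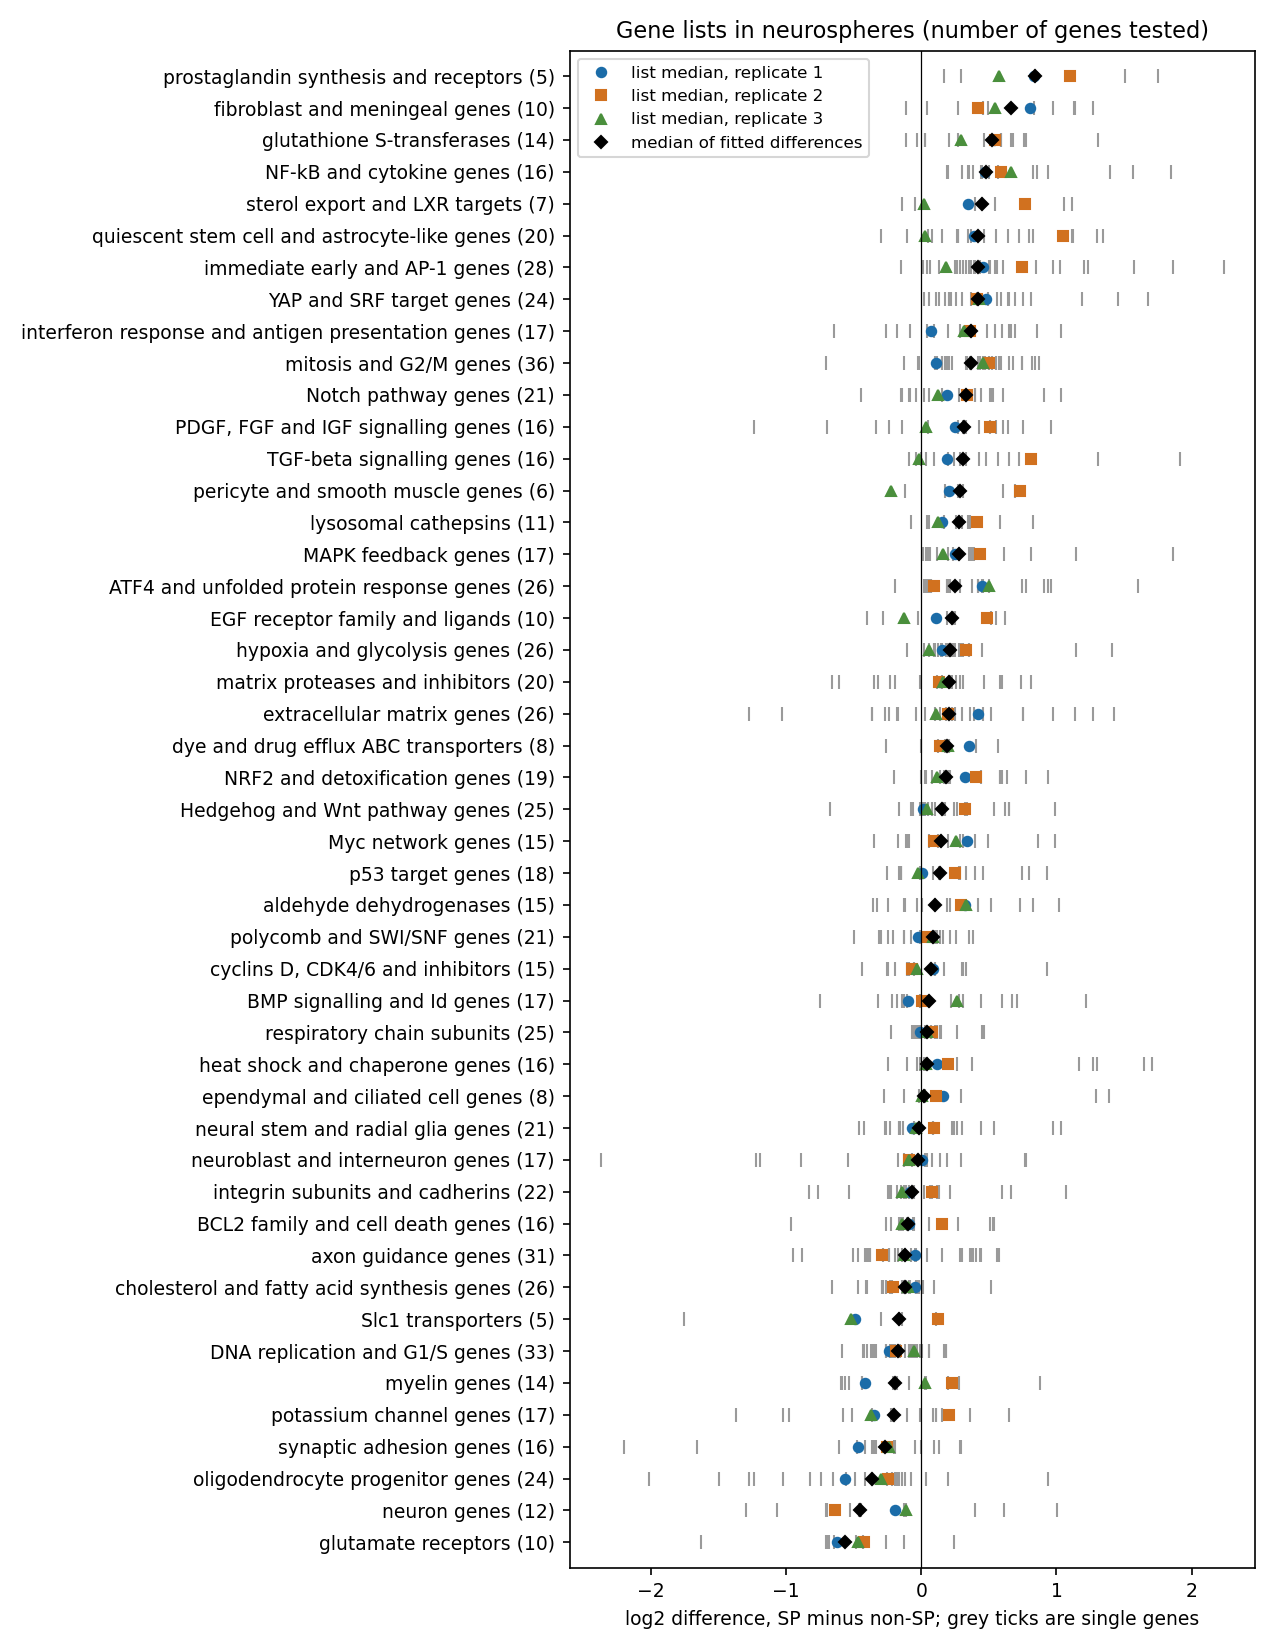
Gene lists with at least 5 tested genes, ordered by their median log2 difference of SP minus non-SP (black diamonds), with grey ticks for single genes and coloured symbols for the list median within each of 3 replicate pairs. Prostaglandin, NF-kB, immediate early and YAP and SRF lists lie to the right of 0 in all 3 pairs, and the glutamate receptor, neuron and oligodendrocyte progenitor lists lie to the left in all 3.

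Genes of oligodendrocyte progenitors, the committed cells that divide and later form myelin, were lower in SP cells in most cases. Of 24 tested genes 21 were below 0, the median was -0.36, 1 passed (Lhfpl3) and 6 were lower at an unadjusted p under 0.05, against 2.05% of all genes. The median was below 0 within each of the 3 pairs. On the probe set with the highest mean signal, 3 of the 24 genes were above the array median on 0 of the 6 arrays. Pdgfra, the receptor by which these cells respond to PDGF, had 187, 1325 and 310 in SP cells and 867, 2034 and 672 in non-SP cells. The arrays overlapped while SP was lower in 3 of 3 pairs, at -1.24 ± 0.28 (adjusted p = 0.163). The other 2 probe sets of Pdgfra gave -0.02 and 0.06, at mean signals of 10.3 and 96.4. Gpr17, a receptor of cells that have begun to differentiate, had 6.37, 28.3 and 4.69 against 72.0, 69.8 and 48.0, without overlap, at -1.50 ± 0.41 (adjusted p = 0.357). The matrix protein Tnr had 37.9, 35.8 and 34.1 against 139, 122 and 76.6, a difference of -1.28 ± 0.36 without overlap. The lineage factor Sox6 had 1387, 2383 and 1585 against 2985, 2890 and 2439, also without overlap, at -0.65 ± 0.19 (adjusted p = 0.389). Two-way results came from the brighter lineage factors Olig2 and Olig1, whose signals were lower in SP cells in replicates 1 and 3 and higher in replicate 2. Olig2 had 4762, 5384 and 3613 against 5287, 4588 and 4200, and Olig1 had 3747, 5321 and 2963 against 4908, 4746 and 3752. Gpr37l1, which astrocytes also express, was 1 of the 3 genes above 0, at 0.93 ± 0.28 (adjusted p = 0.442).

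Myelin genes were below 0 in 9 of 14 tested cases at a median of -0.19, and 0 passed. Because the filter counted all 15 arrays, tested genes such as Mbp (3.98 to 57.0) and Myrf (2.57 to 31.5) were above the array median on 0 of the 6 neurosphere arrays. Of the 20 myelin genes on the array this held for 11. The ligand of Pdgfra, Pdgfa, had 8472, 6314 and 3274 in SP cells and 6027, 2843 and 2709 in non-SP cells, with SP higher in 3 of 3 pairs, overlapping arrays and a difference of 0.60 ± 0.13 (adjusted p = 0.153). The FGF receptor Fgfr2 stood at 0.96 ± 0.24 (adjusted p = 0.233), with 903, 1047 and 1319 against 337, 469 and 1118. Of 16 genes of PDGF, FGF and IGF signalling 11 were above 0 at a median of 0.32, and 0 passed.

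Neuron genes lay mostly below 0, whereas genes of young neurons lay on either side. Of 12 tested neuron genes 9 were below 0 at a median of -0.45, 1 passed (Atcay; 0.0252% of all genes were called lower) and 5 were lower at an unadjusted p under 0.05 (all genes, 2.05%). The synaptic protein Snap25 had 120, 289 and 64.7 in SP cells and 418, 586 and 96.8 in non-SP cells, with overlap, at -1.06 ± 0.39 (adjusted p = 0.665). The dendritic protein Map2 had 4255, 5660 and 5273 against 6233, 6901 and 7296, without overlap, at -0.46 ± 0.18 (adjusted p = 0.702). The 3 neuron genes above 0 were higher in SP cells in 3 of 3 pairs. Among them, Nefl had 413, 300 and 113 against 208, 253 and 67.1, and Cplx2 had 1531, 1679 and 1141 against 1250, 1073 and 974. Of 17 neuroblast and interneuron genes 9 were below 0 and 8 above, at a median of -0.02, and 4 were lower at an unadjusted p under 0.05 (all genes, 2.05%). Dcx, the microtubule protein of migrating young neurons, had 76.1, 130 and 4.71 against 313, 514 and 212. Its arrays did not overlap, and the difference was -2.37 ± 0.58 (adjusted p = 0.207). The other 3 probe sets of Dcx gave -1.36 to -0.08. The RNA-binding protein Elavl4 (-1.19 ± 0.32), the growth cone protein Gap43 (-1.22 ± 0.38) and Elavl3 (-0.89 ± 0.33) stood below 0 in 3 of 3 pairs without passing. Among the 8 above 0, the interneuron factor Dlx2 had 1496, 982 and 1850 in SP cells and 1526, 371 and 1053 in non-SP cells, with overlap, at 0.77 ± 0.70 (adjusted p = 0.973). Dlx2 was named after its values were seen. With the 6 arrays alone, 3 of the 17 passed, namely Dcx, Gap43 and Elavl4, against 0.193% of all genes.

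Glutamate receptors, which oligodendrocyte progenitors and neurons both carry, were below 0 in 9 of 10 tested genes at a median of -0.56, of which 0 passed and 3 were lower at an unadjusted p under 0.05 (all genes, 2.05%). The AMPA receptor subunit Gria2 had 224, 896 and 379 in SP cells and 1184, 2461 and 921 in non-SP cells, without overlap, at -1.63 ± 0.39 (adjusted p = 0.183). Its other 2 probe sets gave -1.69 and -1.09. The subunit Gria4 had 57.0, 83.3 and 77.8 against 90.0, 196 and 123, without overlap, at -0.71 ± 0.24. Neto1, which is not on the list, is an auxiliary protein of kainate and NMDA receptors and had 133, 368 and 403 against 670, 1316 and 1366, again without overlap, at -1.86 ± 0.41 (adjusted p = 0.153).

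Of 16 synaptic adhesion genes 12 were below 0 at a median of -0.26. Cntn1, an adhesion protein of axons and oligodendrocyte progenitors, had 315, 2027 and 401 against 1481, 4195 and 1494, with overlap and SP lower in 3 of 3 pairs, at -1.66 ± 0.36 (adjusted p = 0.153). Lrrtm1, a postsynaptic adhesion protein, had 1.93, 3.17 and 1.55 against 80.3, 98.7 and 41.0, so its SP signals were near the bottom of the scale, at -2.20 ± 0.47 (adjusted p = 0.153). Cbln1, a secreted organizer of synapses outside the list, had 127, 144 and 26.6 against 552, 395 and 153, without overlap, at -1.79 ± 0.34 (adjusted p = 0.0895). Of 17 potassium channel genes 11 were below 0 at a median of -0.20, with Kcnd2 at -1.37 ± 0.44. The netrin receptor Unc5c stood at -0.95 ± 0.21 without overlap on the normalized scale (adjusted p = 0.153) among 31 axon guidance genes whose median was -0.12.

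**Figure D4:**
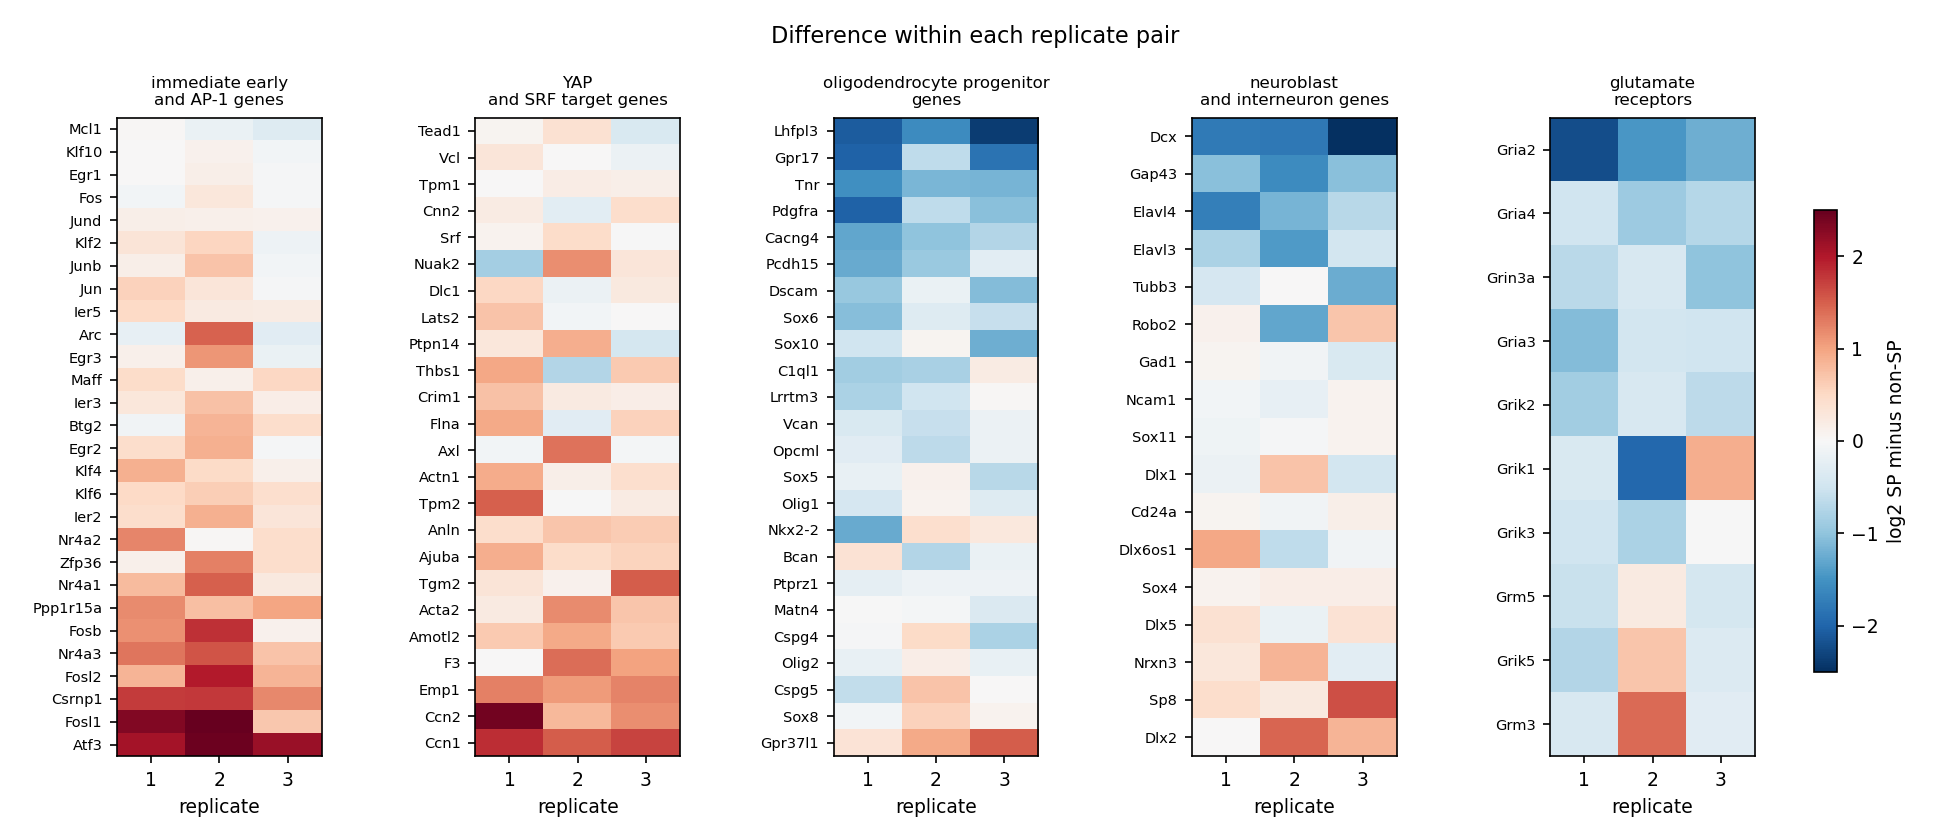
Log2 difference of SP minus non-SP within each of 3 replicate pairs for the tested members of 5 gene lists, from blue (lower in SP) to red (higher in SP), with the scale ending at 2.5 in either direction. Atf3, Csrnp1, Ccn1 and Emp1 are red in all 3 pairs, and Lhfpl3, Pdgfra, Dcx and Gria2 are blue in all 3.

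Genes shared by quiescent stem cells and astrocytes were above 0 in 18 of 20 tested cases at a median of 0.42, of which 0 passed and 4 were higher at an unadjusted p under 0.05 (all genes, 3.93%). Clu, the secreted chaperone clusterin, had 3729, 916 and 1435 in SP cells and 1337, 351 and 687 in non-SP cells, with overlap and SP higher in 3 of 3 pairs, at 1.34 ± 0.65 (adjusted p = 0.852). Its pair differences were 1.48, 1.46 and 1.08, and with the 6 arrays alone its standard error was 0.16 and its adjusted p 0.0124. The lipid carrier Apoe had 1576, 477 and 109 against 853, 144 and 59.0, at 1.11 ± 0.45. The water channel Aqp4 had 178, 1027 and 59.4 against 93.4, 237 and 37.3, at 1.12 ± 0.53, and Ndrg2 stood at 0.80 ± 0.24. The other 2 probe sets of Aqp4 gave -0.69 and -0.16, at mean signals of 11.7 and 28.7. For Apoe and Aqp4 the replicates differed by more than the populations, and the median of the list was 0.03 in replicate 3 against 1.04 in replicate 2.

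Of 21 Notch pathway genes 15 were above 0 at a median of 0.33, and 0 passed. The receptor Notch2 had 9162, 8438 and 8335 in SP cells and 7840, 7344 and 5946 in non-SP cells, without overlap, at 0.28 ± 0.11 (adjusted p = 0.734). The target genes Hes5 and Hey2 stood at 1.04 ± 0.47 and 0.90 ± 0.38. Of 8 tested ependymal and ciliated cell genes 5 were above 0 and 3 below, at a median of 0.02, and 0 passed. They ran from Ccdc39 at -0.27 to Rsph1 at 1.39 ± 0.54, with Ak7 at 1.30 ± 0.35. Rsph1 was dim, above the array median on 2 of the 6 arrays. Of the 20 genes of this list on the array, 12 were above the median on 0 of the 6 arrays.

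Cell cycle genes split by phase. Of 33 DNA replication and G1/S genes 27 were below 0, at a median of -0.17, and 0 passed. Pcna, the sliding clamp of DNA polymerase, had 5275, 8453 and 6587 in SP cells and 7869, 9028 and 8488 in non-SP cells, with overlap, at -0.40 ± 0.13 (adjusted p = 0.571). The origin licensing factor Cdc6 had 386, 463 and 427 against 540, 905 and 585, without overlap, at -0.58 ± 0.33. Of 36 mitosis and G2/M genes 32 were above 0, at a median of 0.36, 0 passed, and 24 of the 36 were higher in all 3 pairs against 20.8% of all genes. The mitotic kinase Aurka had 168, 291 and 286 against 121, 116 and 168 with overlap, at 0.87 ± 0.32 (adjusted p = 0.668). The kinesins Kif23 (0.74 ± 0.29) and Kif2c (0.65 ± 0.30) and the centromere protein Cenpf (0.82 ± 0.32) lay above 0 in 3 of 3 pairs, and the kinesin Kif20b went the other way at -0.70 ± 0.32. Their dimmer probe sets did not all keep these signs. Those of Kif23 gave -0.11 and -0.01, of Cenpf -0.24 and 0.18, and of Kif2c -0.23 to 0.57. Aurka gave -0.66 on its other set, and Kif20b gave -0.39 to 0.18. The growth regulator Myc stood at 0.99 ± 0.30 (adjusted p = 0.457), its antagonist Mxd1 at 0.87 ± 0.28 and the inhibitor Cdkn1a at 0.93 ± 0.34.

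Stress and metabolic lists lay mostly above 0 in SP cells with 0 members past the test in each. ATF4 and unfolded protein response genes were above 0 in 25 of 26 cases at a median of 0.25. Trib3, a pseudokinase that ATF4 induces, had 524, 144 and 444 in SP cells and 153, 73.3 and 96.6 in non-SP cells, with overlap, at 1.60 ± 0.48 (adjusted p = 0.457). Glutathione S-transferases were above 0 in 12 of 14 cases at a median of 0.52, and Mgst1 had 4602, 3047 and 4300 against 3012, 1312 and 3057, with arrays that overlapped in signal but not after normalization, at 0.76 ± 0.23 (adjusted p = 0.457). NRF2 and detoxification genes were above 0 in 17 of 19 cases at a median of 0.18, with the autophagy receptor Sqstm1 at 0.77 ± 0.23. Hypoxia and glycolysis genes were above 0 in 25 of 26 cases at a median of 0.22, with Ndrg1 at 1.41 ± 0.45 and the pyruvate kinase Pkm at 0.29 ± 0.10.

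Lipid genes ran both ways. Cholesterol and fatty acid synthesis genes were below 0 in 22 of 26 cases at a median of -0.12. The fatty acid elongase Elovl6 had 1051, 1873 and 2308 in SP cells and 1720, 2840 and 3755 in non-SP cells. These arrays overlapped, the pairs stood at -0.67, -0.63 and -0.67, and the difference was -0.66 ± 0.17 (adjusted p = 0.282). Of 7 sterol export genes 5 were above 0 at a median of 0.45. The cholesterol exporter Abca1 had 1190, 1426 and 931 against 792, 417 and 556, without overlap, at 1.06 ± 0.37 (adjusted p = 0.629).

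Some of the largest differences belonged to genes outside these groups and did not pass, although Pdk4, Mt2, Hsd11b1 and Stat3 passed with the 6 arrays fitted alone. With these arrays also normalized alone, and the brightest probe set chosen on them, Pdk4 and Mt2 passed. Stat3 then stood at -0.13 (adjusted p = 0.795, limma) and Hsd11b1 at 1.95 (adjusted p = 0.0556), and neither passed. Pdk4, the kinase that shuts pyruvate dehydrogenase, had 594, 1597 and 264 in SP cells and 80.6, 157 and 118 in non-SP cells, without overlap, at 2.35 ± 0.79 (adjusted p = 0.553). The metal-binding protein Mt2 had 8601, 7945 and 6457 against 4847, 1549 and 1634, without overlap, at 1.67 ± 0.40 (adjusted p = 0.189). The glucocorticoid-activating enzyme Hsd11b1 had 86.7, 58.7 and 69.3 against 11.8, 4.54 and 3.93, at 1.96 ± 0.36 (adjusted p = 0.0895), with pair differences of 1.95, 1.96 and 1.96. The kinase Ptk2b had 62.3, 231 and 68.5 against 4.32, 7.18 and 14.8, at 2.28 ± 0.60 (adjusted p = 0.319), and its other 1 probe set gave 0.02. On the lower side Stat3 had 143, 534 and 272 against 619, 1597 and 550, without overlap, at -1.47 ± 0.30 (adjusted p = 0.121), but its other 3 probe sets gave -0.13 to 0.63.

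Markers of microglia and blood cells were dim in both populations, while 1 endothelial, 3 pericyte and 3 fibroblast genes were above the array median on all 6 arrays. Of these lists, 6 of 12 endothelial, 6 of 12 pericyte and 7 of 15 fibroblast genes were above it on 0 of the 6 arrays. The 3 pericyte genes were Cspg4, Notch3 and Mcam, and Cspg4 is also on the oligodendrocyte progenitor list. Microglia and macrophage genes summed to 377 to 784 in SP arrays and 302 to 417 in non-SP arrays over 15 genes, with 13 of the 15 below the median on all 6 arrays. Within that list Cd68, a lysosomal protein, had 447, 115 and 132 against 188, 83.0 and 40.3. Endothelial genes summed to 699 to 2216 against 445 to 595 over 12 genes, of which Flt1 gave 379, 1990 and 265 in SP cells. Pericyte and smooth muscle genes summed to 1221 to 2634 against 865 to 1912 over 12 genes and fibroblast and meningeal genes to 1943 to 2722 against 1277 to 2204 over 15. The brightest of these were Notch3, at 345 to 2175, Fn1, at 218 to 1219, and Foxc1, at 503 to 1096. In replicate 3 the summed signal of the tested pericyte genes was 1829 for non-SP against 1716 for SP cells, and the endothelial sums were 475 and 481. Among matrix genes that fibroblasts make, Col6a1 stood at 1.14 ± 0.45 without overlap, Col1a1 at 1.27 ± 0.53 and the basement membrane protein Nid1 at 1.42 ± 0.59, and none of them passed. The other 2 probe sets of Nid1 gave -0.33 and 0.0002. The part of such cells in the differences of the cytokine, matrix and TGF-beta genes was not tested.

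The 3 replicates differed from each other in many more genes than SP from non-SP. The F test on the replicate terms called 698 genes (5.86%), 19.7% of genes had an unadjusted p under 0.05, and 2 of the 7 genes above were among them. Replicate 3 stood apart on the first principal component, which held 41.1% of the variance of the 6 arrays. Xist, the RNA of the inactive X chromosome, had 86.8, 30.7 and 7628 in SP cells and 40.7, 71.9 and 5817 in non-SP cells. The Y-linked Eif2s3y had 3795, 1252 and 5.01 in SP cells and 4353, 762 and 30.9 in non-SP cells, and the Y-linked Kdm5d was likewise low in replicate 3 alone. The imprinted gene Grb10 (adjusted p = 9.74e-08) had 2090, 1218 and 61.5 in SP cells and 2200, 1838 and 13.2 in non-SP cells, and the patterning gene Hoxa3 (adjusted p = 1.71e-06) was high in replicate 3, at 1759 and 1173 against at most 58.0. In these genes both arrays of replicate 3 stood apart from the other 4.

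**Figure D5:**
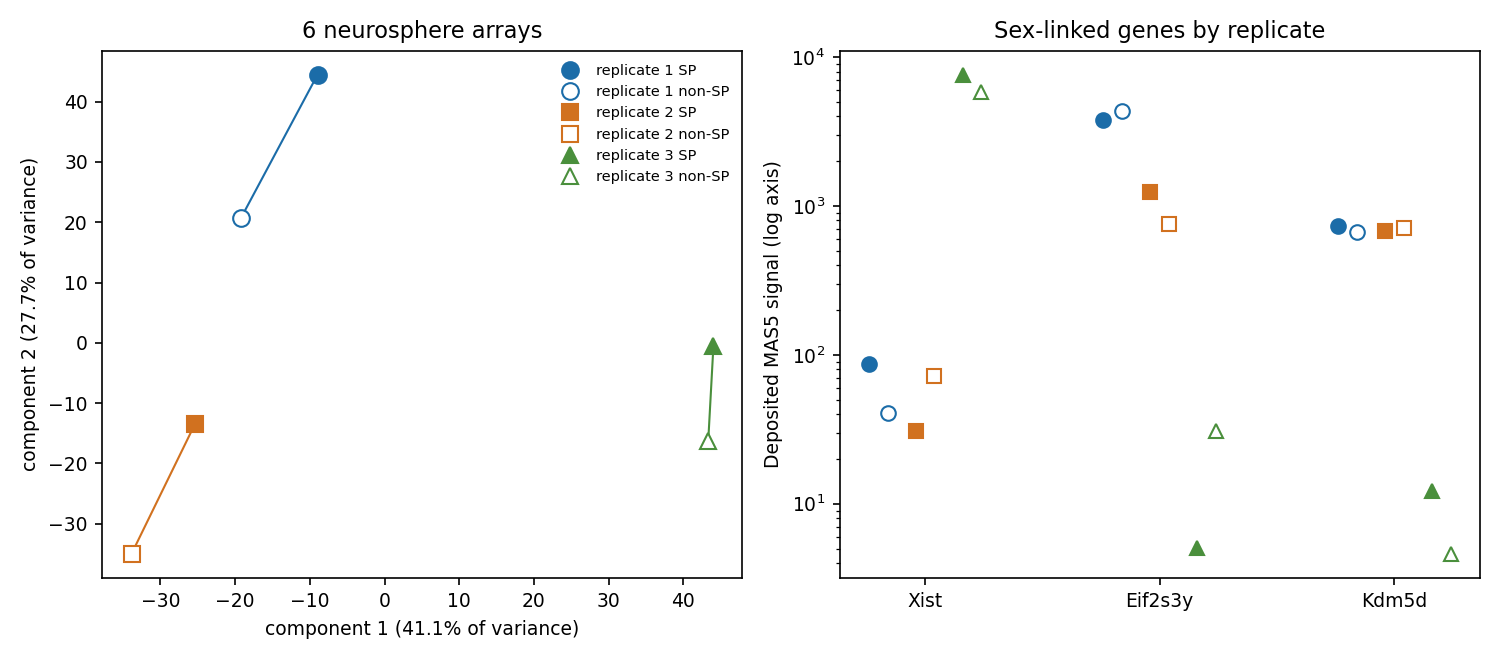
Left, the 6 neurosphere arrays on the first and second principal components of all tested genes, with a line joining SP (filled) and non-SP (open) of a replicate. Right, deposited MAS5 signal on a log axis of 3 sex-linked genes, where replicate 3 has high Xist and low Eif2s3y and Kdm5d in both populations.

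The SP effect of neurospheres was set against that of line 3447, the other culture with both populations. The test of the difference called 0 of 11908 genes in limma, and 412 (3.46%) had an unadjusted p under 0.05. Atf3 stood at 2.24 in neurospheres and 1.03 in line 3447, and the difference of -1.20 ± 0.44 did not pass (adjusted p = 0.996). Ccn1 stood at 1.68 and 1.09, Emp1 at 1.19 and 0.31 and H1f2 at 0.85 and 0.42. Slc1a1 stood at -1.75 and -0.30, Lhfpl3 at -2.01 and -0.56 and Atcay at -1.30 and -0.61. All 7 genes had the same sign in both cultures, but the share of all genes that did was not counted, so nothing is drawn from this. The 7 genes were chosen by the test in neurospheres, which favours larger values there, so the sizes are not compared. Abcg2 stood at 0.57 in neurospheres and 0.90 in line 3447. Among the smallest p of this test was that of Nfatc2, a calcium-regulated transcription factor, at 1.16 in neurospheres and -0.25 in line 3447, with a difference of -1.41 ± 0.32 (adjusted p = 0.996). In neurospheres the other 5 probe sets of Nfatc2 gave -0.28 to 0.76, and 3 of them were below 0.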

How the data were processed

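RNA of sorted cells was isolated with a micro-scale kit, amplified and hybridised to 1-colour Affymetrix mouse arrays, per the labels' protocols. The deposited value of each probe set is a MAS5 intensity, summarised and scaled by the authors in Affymetrix Expression Console, per the submitters' processing notes, and versions are not given in the sources used here. These intensities were quantile-normalized over all 15 arrays, and log2 was then taken of the normalized signal plus 16. Control probe sets and those with several or no gene symbols were left out. Probe sets above the array median on at least 3 of 15 arrays were kept, and the brightest stood for its gene, which left 11908 genes, of which 11854 matched RefSeq (GRCm38.p6).

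limma 3.58.1 (R 4.3.3) fitted 5 group means and the neurosphere replicate number, with a mean-variance trend and Benjamini-Hochberg adjustment over all genes. The design text counts 3 mice for the 6 neurosphere arrays, and the correlations of deviations between same-numbered arrays (0.577, 0.522 and 0.621) all exceeded 0.1, so the block was kept. Without labels that tie each array to an animal, p-values measure the spread between these samples. The number of arrays limits the precision. The fit was tested on simulated data.

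The genes, lists and motifs were chosen with earlier results of these data known. The rules for naming took all genes past the test and a few fixed transporter and stem cell genes. They also took the 12 largest differences in each direction among genes without overlap at an unadjusted p under 0.01. From each list they took up to 5 genes with the smallest p. Not every gene that these rules took is described, for example Chchd10 at 1.65 and Plppr1 at -1.39. Clones and predicted genes were counted and not named. Other genes in the text, such as Hspa1a, Cdc6 and Flt1, illustrate their list and were chosen after their values were seen. Alternatives changed the block, the arrays fitted, the normalization, the added constant, the filter, the probe set rule, the trend and array weights, and left out each replicate.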

Additional observations from a re-analysis of the deposited data

How the results depend on the processing

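The count of 7 genes for neurosphere SP against non-SP depended on how the spread was estimated. The replicate block mattered: with no replicate block 2 genes passed, Atf3 and Slc1a1. The count was 70 with the 6 neurosphere arrays fitted alone, 99 with these also normalized alone and 165 with array weights. It was 14 with median centring, 4 with no filter on dim probe sets, 4 with the mean of probe sets and 0 without the mean-variance trend, where 472 genes were higher and 260 lower at an unadjusted p under 0.05 in limma. Leaving out 1 replicate at a time gave 0 to 28 genes, with 28 when replicate 3 of the 4346 SP was left out. All 7 genes were among the 28, the 70, the 99 and the 165. With other added constants, without quantile normalization or with the filter on the neurosphere arrays alone, the count stayed within 6 to 8. Of 24 alternatives, Atf3 and Slc1a1 lost their call in 6 each, Lhfpl3 in 8, Emp1 in 9, Ccn1 in 11, and H1f2 and Atcay in 13 each, with the direction kept in each.

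The number of genes called for differences among the 3 neurosphere replicates was 1983 with the 6 arrays alone, 2059 with these normalized alone and 2276 with array weights, and 100 to 1256 with 1 replicate left out. It was 461, 437 and 100 without neurosphere replicates 1, 2 and 3, and 590 to 1256 without a tumour replicate. The comparison with line 3447 called 0 to 1 genes with 1 replicate left out. Of 2964 values of 124 named genes under alternatives, 5 changed sign. The value of the gene Prom1 was -0.0060 with array weights, -0.021 without replicate 2 and -0.041 without replicate 3. That of the gene Abcb1b was -0.0034 without replicate 1 and -0.00066 without replicate 3. Of 456 medians of 19 lists under these alternatives 0 changed sign, but some moved: the prostaglandin list ranged from 0.17 to 1.59, the neuron list from -0.53 to -0.08, the glutamate receptor list from -0.65 to -0.26, and the YAP and SRF list, which moved in 8 settings, from 0.26 to 0.53. The cause of these shifts was not tested. Probe sets near or below the array median, such as those of Lrrtm1, Hsd11b1 and Gpr17, give differences that the added constant of 16 compresses.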
